A study of Mus musculus with 2 samples.

Results

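The mouse miRNAs whose registry number lies in the 3000s were examined on 2 Agilent 1-colour miRNA arrays, 1 of WT and 1 of Tif1b KO hematopoietic stem and progenitor cells. The members were all miRNA probes named mmu-miR- with such a number and any suffix, leaving out miR-3070 to miR-3072 and miR-3082. They came to 136 of the 1247 miRNAs on the array, with 280 of its 3105 probes. Of them 110 ran from miR-3057 to miR-3113, 10 from miR-3470 to miR-3475, 4 from miR-3544 to miR-3620 and 12 from miR-3960 to miR-3971. The rule for membership used names only and no measured value, though it was set with earlier results of these data known.

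Both samples were c-Kit+ Sca1+ Lineage- cells sorted from adult bone marrow on the C57/BL6 background, the fraction that holds stem cells and early progenitors. Both carried the CreERT transgene, a Cre recombinase that tamoxifen activates. The WT sample had the genotype CreERT, Tif1bw/w and the KO sample CreERT, Tif1bf/f, that is, loxP-flanked Tif1b alleles. Tif1b (also Trim28 or KAP1) is a corepressor that zinc finger proteins bring to retroelements and other sequences. The animals' number and age, the promoter that drives CreERT and how recombination was induced are not given in the sources used here. No probe on the array reads Tif1b, so its loss was not checked. With 1 array per genotype there was no replicate and no test between genotypes was possible. Each difference therefore describes these arrays.

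The KO array was the dimmer, and 2510 of its miRNA spots stood well above background, compared with 3308 in WT. Both lay on 1 slide and were read in 1 scan. Of the sorted cells' own markers, 9 of 14 miRNAs enriched in stem cells were measured in WT and 7 in KO. Those absent on both arrays were miR-125a-5p, miR-125b-5p, miR-99b-5p, miR-100-5p and let-7e-5p. Of the 2 pan-blood miRNAs, WT had both, whereas KO kept miR-142-3p and lost miR-142-5p. The brightest probes of this pan-blood pair summed to a signal of 696.6 on WT and 139.7 on KO. For the stem cell list these sums were 1215 and 771.4. The granulocyte and monocyte miRNA miR-223-3p had a signal of 3726 on WT and 63.6 on KO. Its part in the results here was not tested. These signals are unscaled. With the KO over WT scaling factor of 0.437 used below, the stem cell sum would be higher on KO than on WT. The pan-blood sum and miR-223-3p would still be lower. None of the 10 erythroid, stromal, muscle, liver and brain markers on the array was measured on either. In such bulk RNA, fewer cells of a type and less RNA per cell cannot be told apart, nor can either be told from a dimmer array.

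A miRNA is cut from a hairpin transcript by Drosha and Dicer and guides Argonaute to messages through its seed, bases 2 to 8 of the mature strand. Registry numbers follow the order of entry, and those in the 3000s were mostly entered from deep sequencing of small RNA. Among the mouse entries are sequences that match SINE retroelements. The head of the tRNA-derived B2 element holds the sequence of miR-3473b, and B1, a SINE derived from the 7SL RNA, holds that of miR-3470. Such sequences are present in many copies in the genome and in many transcripts.

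Only 7 of the 136 members had a probe measured on either array, and all 7 were measured on both. These were miR-3963, miR-3960, miR-3096b-5p, miR-3096b-3p, miR-3096a-5p, miR-3968 and miR-3473b. The probe or mature sequences of these 7 are shown because they decide what the signals can be assigned to. The longest probe of each miR-3096 member follows, 5′ to 3′, with capitals for the stretch of 15 bases that both 5p probes hold.
miR-3096a-5p: AGTTCTCATCCTTGGcc
miR-3096b-5p: ttagAGTTCTCATCCTTGG
miR-3096b-3p: tggcctcaggtaaatcc
The 5p probes thus read nearly the same stretch of RNA, and their values are not independent. The files place all these probes on chromosome 5, with a position of the 3p probe 53 bases from the miR-3096a-5p probe and another 49 bases from the miR-3096b-5p probe. The 3p signal can therefore not be assigned to either copy.

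miR-3963 and miR-3968 come from different chromosomes but resemble each other, with 15 of 19 aligned bases identical, shown in capitals.
miR-3963: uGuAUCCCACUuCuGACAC
miR-3968: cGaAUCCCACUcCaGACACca
Of the 1017 array miRNAs found in the RefSeq table by name, each of these was the other's closest in ungapped alignment. The mature miR-3963 lies on the minus strand at chr3:151023839-151023857 and miR-3968 on the minus strand at chr11:115447969-115447989 (GRCm38.p6, RefSeq). Neither shared its seed with another array miRNA. Mir3963 overlaps no other listed gene, and Mir3968 lies within the span of Trim80. The gene table used gives spans only, so exons and introns were not told apart.

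miR-3473b is shown beside its numbered relatives on the array, with the seed in capitals, since the probes read the 3′ ends, where the family differs.
miR-3473b: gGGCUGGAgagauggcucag
miR-3473e: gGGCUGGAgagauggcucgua
miR-3473a: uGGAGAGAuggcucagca
miR-3473c: uCUCUCCAgcccccauaauaag
miR-3473d: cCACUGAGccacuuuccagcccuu
miR-3473b and miR-3473e share a seed, and 18 of their 20 aligned bases are identical. The whole targets of both miR-3473b probes also lie in miR-3473a, so neither is unique to miR-3473b. The mature miR-3473b is encoded on the plus strand at chr10:41670774-41670793, within the span of Ccdc162. In its hairpin, with the mature strand in capitals, the opening 20 bases are the exact reverse complement of the mature strand.
Mir3473b hairpin: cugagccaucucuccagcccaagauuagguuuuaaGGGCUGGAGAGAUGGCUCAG

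miR-3960 was matched through its gene, Mir3960, on the minus strand at chr2:32712900-32712972. Its hairpin is shown for its composition, with the target of the longer probe in capitals.
Mir3960 hairpin: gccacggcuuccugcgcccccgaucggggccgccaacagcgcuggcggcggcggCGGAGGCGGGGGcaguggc
In mouse osteoblasts miR-3960 and its neighbour miR-2861 are known to promote differentiation. Mir2861 lies 11 bases from Mir3960 on the chromosome, yet neither probe of miR-2861 was measured. Its probe of 10 bases had a mean signal of 6.09 on WT and 8.38 on KO.

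The share of members measured was 5.15% on the WT array, against 8.02% of all 1247 miRNAs. On the KO array it was again 5.15%, against 6.26%, and on both arrays together 5.15%, against 5.77%. Among the miRNAs below 1000, let-7 included, 6.64% of 798 were measured on both arrays. The figures were 2.36% of 127 for numbers from 1000 to below 3000 and 5.08% of 177 for numbers 5000 and above. The members' share on both arrays thus lay near the background. No member was measured on 1 array only, but this rests on just 7 measured members. The other 1111 miRNAs included 28 seen in WT alone, 6 in KO alone and 65 in both genotypes. By single probes the members did differ between the arrays. WT had 12 measured member probes and KO had 9, and 9 passed in both genotypes. A probe counted as measured when more than 50% of its spots, outlier spots left out, were marked well above background by the scanner software.

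The measured members lay in 3 of the 4 runs of numbers. Of the 12 miRNAs from miR-3960 to miR-3971, 3 were measured, and of the 110 from miR-3057 to miR-3113 only the 3 miR-3096 entries were. Of the 10 from miR-3470 to miR-3475 only miR-3473b was measured, and of the 4 from miR-3544 to miR-3620 none. By arm, 4 of the 22 members with no arm in the name were measured, 2 of the 57 named 5p and 1 of the 57 named 3p. The shares by arm were not counted for the other array miRNAs, so these counts have no background beside them.

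Member probes that were not measured, those of measured members included, had signals in or below the range of the negative controls with 1 exception on each array. These were a probe of miR-3102-5p on WT and the shorter probe of miR-3473b on KO. On the WT array the 268 unmeasured probes had a median signal of -2.70, from -9.89 to 17.5, after the software's background subtraction. The 983 usable negative control spots there had a median of 6.52, with 95% of them between -0.360 and 14.7. That is the range of single spots, whereas each probe signal is a mean over spots, which scatters less. On the KO array the 271 unmeasured member probes had a median of -3.52 and the negative controls one of 6.92. Only 0.373% of the unmeasured member probes on WT and 0.369% on KO exceeded the upper end of that range on the same array. For the unmeasured probes of other miRNAs these shares were 0.785% and 1.18%.

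**Figure D1:**
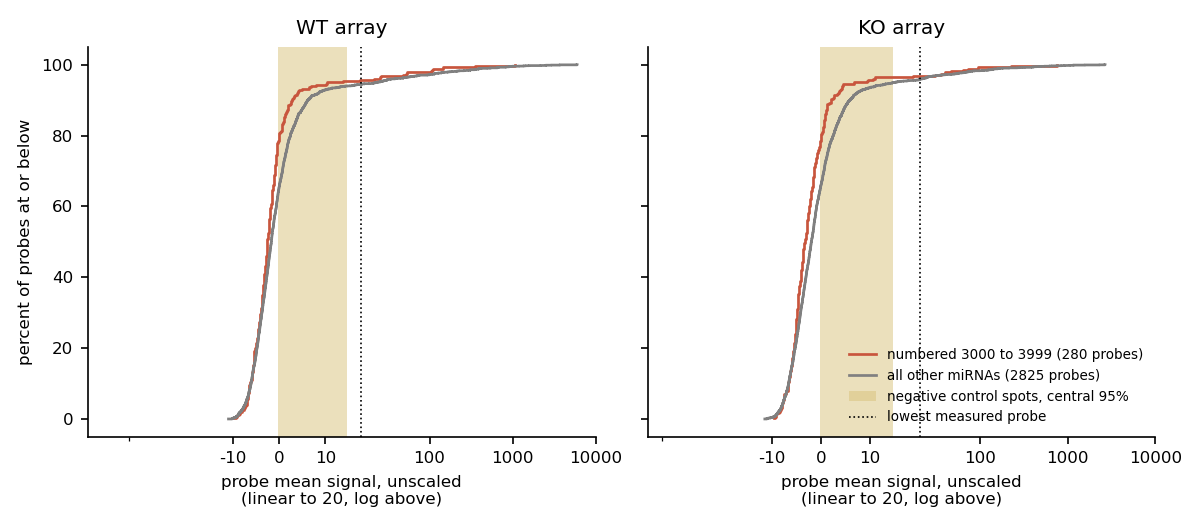
Cumulative percent of probes (vertical) by probe mean signal (horizontal, arbitrary fluorescence units, unscaled, linear to 20 and log above) on the WT (left) and KO (right) array, for the 280 probes of miRNAs numbered in the 3000s and the 2825 other miRNA probes. The band spans the central 95% of negative control spots and the dotted line marks the lowest measured probe, which was 17.7 on WT and 21.1 on KO. Most member probes lie below the line on both arrays.

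Just inside the limit stood miR-3968, whose longer probe had 55% of its spots well above background on both arrays. Just outside it stood miR-3102-5p, with 47.1% on WT and none on KO and a signal of 17.5 and 6.88. The next in line, miR-3112-3p, had 5% on WT, none on KO, and a signal of 10.1 on WT and 11.1 on KO. The other 8 of the 10 brightest unmeasured members were miR-3970, miR-3063-3p, miR-3085-3p, miR-3092-3p, miR-3083-3p, miR-3473d, miR-3060-5p and miR-3104-3p. Their best probes had means between 0.797 and 4.93 on the arrays, within the range of single negative control spots. The software's own call per miRNA detected 8 members on WT, against 9.62% of all miRNAs, and 7 on KO, against 7.94%. The additional one on WT was miR-3102-5p.

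Signals of different probes depend on how each binds and are not amounts of RNA, so the levels that follow describe each probe by itself. Both probes of miR-3963 were measured on both arrays. Its probe of 16 bases had a mean of 1077 ± 506 (SD over 20 spots) on WT and 767 ± 466 (20 spots) on KO. Its spots ran from 145 over a median of 1031 to 1941 on WT, and from 82.4 over 893 to 1729 on KO, so the arrays overlapped widely. The probe of 15 bases had 356 ± 173 on WT and 229 ± 121 on KO. These SDs are technical and say nothing about animals.

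miR-3968, its sequence relative, varied widely from spot to spot. Its probe of 15 bases had 52.1 ± 50.8 on WT and 35.7 ± 32.8 on KO (SD over 20 spots each). Single spots ran from -1.44 to 153 on WT and from -7.79 to 100.1 on KO. Its probe of 14 bases, which lacks only the last base, had a mean of -4.15 on WT and -4.04 on KO, with no spot well above background. A miR-3968 signal was thus seen by 1 of its 2 probes.

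miR-3960 was seen by both of its probes on both arrays. The probe of 11 bases, with a GC content of 90.9%, had 144 ± 21.9 on WT (17 spots) and 94.2 ± 11.3 on KO (15 spots). All its usable KO spots lay between 75.6 and 113, and its WT spots between 95.8 and 171. The probe of 12 bases had 108 ± 43.0 on WT and 73.7 ± 34.4 on KO, with wider spreads.

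The miR-3096 members were dimmer on the KO array by the readout before scaling. miR-3096b-5p had 103 ± 9.27 on WT (17 spots) and 64.3 ± 6.16 on KO (16 spots) with its probe of 19 bases. Its WT spots ran from 80.6 to 115 and its KO spots from 51.9 to 78.0. Unscaled, 90.3% of the 72 miRNAs measured on both arrays were lower on KO. How often spots separate between the arrays over all probes was not counted. miR-3096b-3p had 110 ± 50.7 on WT and 47.6 ± 23.3 on KO with its probe of 17 bases (20 spots each), and its spots overlapped between arrays. miR-3096a-5p had 54.1 ± 12.8 on WT and 30.8 ± 8.65 on KO with its probe of 17 bases. The shorter probes of miR-3096b-3p and miR-3096b-5p were measured on WT only, at 26.1 and 21.7, and that of miR-3096a-5p on neither array.

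miR-3473b, the B2-like member, had the KO level nearest to its WT level of the 7 before scaling. The probe of 16 bases had 47.7 ± 6.93 on WT (18 spots) and 40.0 ± 3.96 on KO (20 spots). Its spots, from 33.9 to 47.9 on KO and with a median of 49.0 and a lowest of 32.5 on WT, overlapped. The probe of 15 bases had 25.5 ± 4.90 on WT and 18.9 ± 6.32 on KO, where it was not measured. The relatives miR-3473a, miR-3473c, miR-3473d and miR-3473e were measured on neither array, with probe means from -6.08 to 1.99 on WT and from -6.85 to 3.53 on KO. No spot of these 4 was well above background. miR-3473e, which has the seed of miR-3473b and differs at its 3′ end, had -5.56 on WT and -5.19 on KO with its probe of 16 bases.

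**Figure D2:**
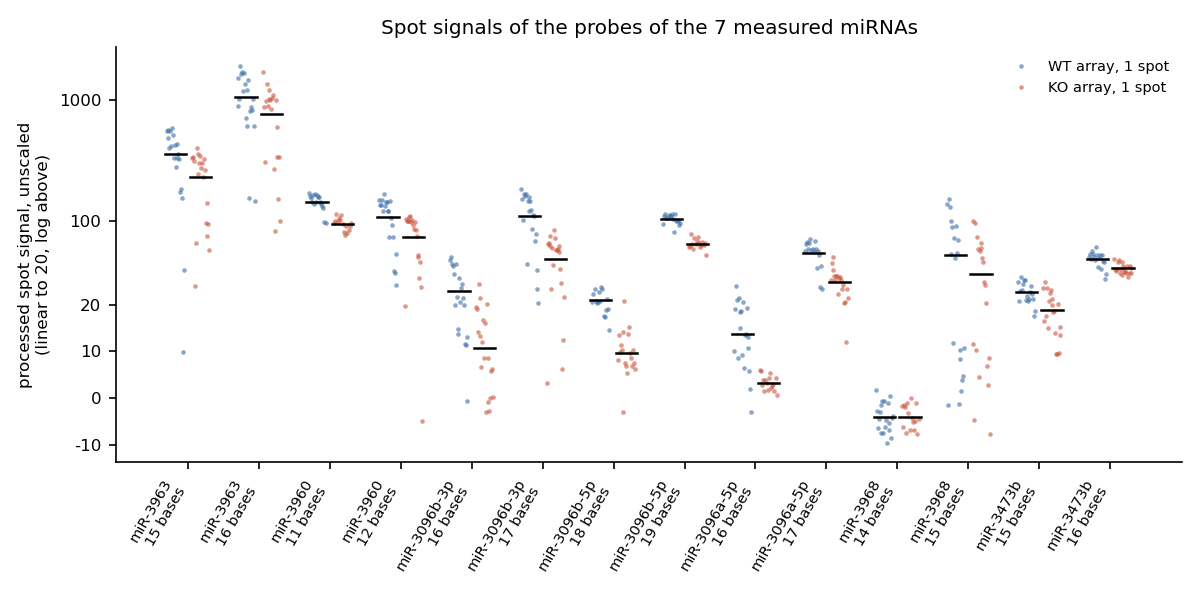
Processed signal of each spot (vertical, arbitrary fluorescence units, unscaled, linear to 20 and log above, outlier spots left out) for the 14 probes of the 7 measured miRNAs (horizontal, with probe length), on the WT and KO array. Black lines are means. Spots of miR-3096b-5p (19 bases) and miR-3473b (16 bases) are tight, while those of miR-3968 (15 bases) run from -1.44 to 153 on WT.

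The spots of the same probe differed by where on the array they lay. With the rows of the array divided into 3 equal bands, the first band of WT had a median of 1.69 times the mean signal of the last. This was over the 109 probes measured on both arrays with a mean above 0 in both bands. On KO the median was 1.44 times, over 112 probes. miR-3963 fell from a mean of 1466 in the first band to 1026 in the middle and 701 in the last on WT. On KO it fell from 1031 to 848 and 306. miR-3968 had 95.3, 61.8 and 5.50 in these bands on WT and 47.7, 48.1 and 13.0 on KO. In the last band it was thus near the background on both arrays. miR-3096b-5p was nearly even, with 107, 109 and 97.4 on WT and 65.3, 67.2 and 61.4 on KO. miR-3473b was at 51.4, 48.9 and 40.0 on WT and at 41.8, 38.8 and 39.0 on KO. Each of these means rests on 3 to 9 spots.

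**Figure D3:**
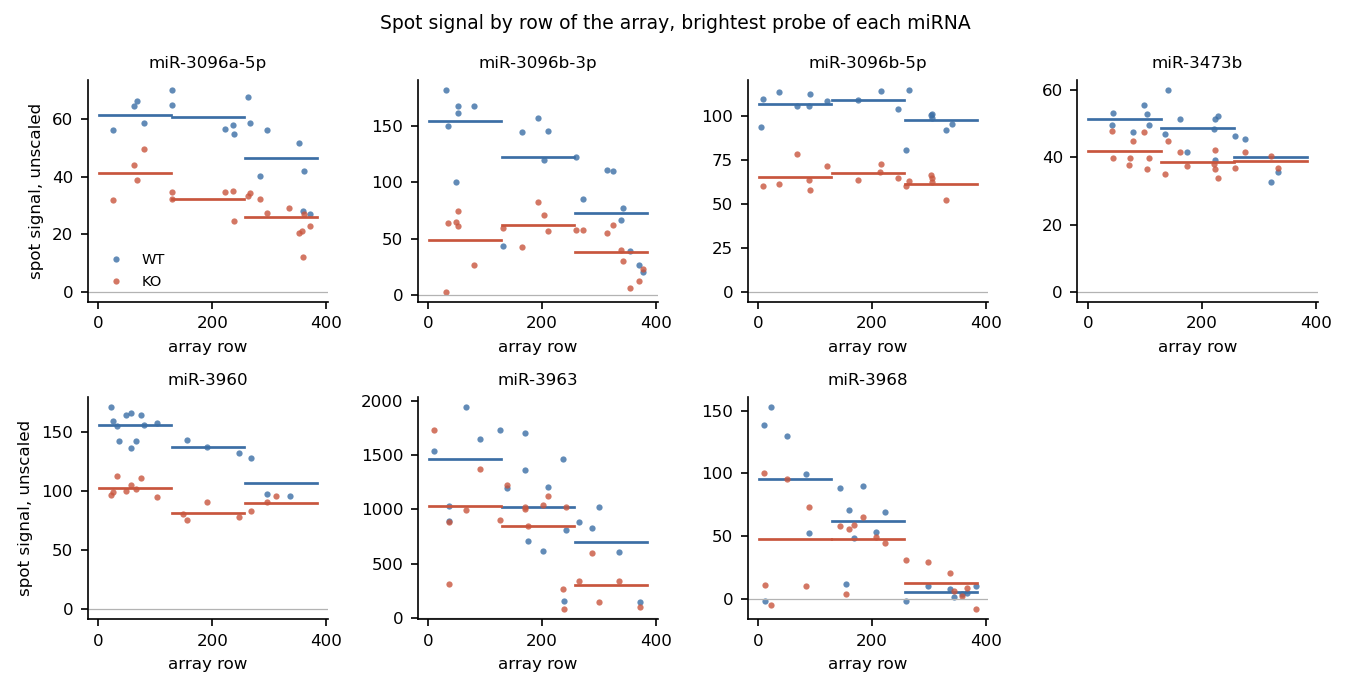
Spot signal (vertical, arbitrary fluorescence units, unscaled) by row of the array (horizontal), for the brightest probe of each of the 7 measured miRNAs on the WT and KO array. Lines are means over 3 equal bands of rows. miR-3963 and miR-3968 fall with the row number on both arrays, and miR-3096b-5p is nearly even.

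To compare genotypes, each array was scaled to the upper quartile (75th percentile) of 113 probes, those measured in WT as well as in KO. That signal was 487 in WT and 213 in KO. Differences are log2 values of KO minus WT, and where both probes of a miRNA qualified their median was taken. None of the 7 members was at least 2-fold higher, against 13.9% of the 72 miRNAs measured on both arrays, and none at least 2-fold lower, against 13.9%. With this scaling miR-3473b was at 0.94 (1.92-fold) with a spot SD of 0.24 over 18 spot positions, the highest of the 7, and unscaled it was at -0.26, the smallest difference of the 7. All 18 positions were above 0, and it stood 12th from the highest of the 72. The second probe of miR-3473b, not measured on KO, gave 0.76.

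The other members were lower after scaling. miR-3968 was at 0.65 (spot SD 1.26), miR-3963 at 0.63 (spot SD 1.15 over 40 positions) and miR-3960 at 0.61 (spot SD 0.49). The 2 probes of miR-3963 gave 0.55 and 0.70, and those of miR-3960 gave 0.58 and 0.64. miR-3096b-5p was at 0.51 (spot SD 0.16), with all 15 positions above 0, and miR-3096a-5p at 0.38 (spot SD 0.33). miR-3096b-3p, whose listed positions lie beside theirs, was at -0.014 (spot SD 1.29), with 12 of 20 positions above 0. The shorter probes of the miR-3096 members, not measured on both arrays, gave lower values. They were 0.025 for miR-3096b-5p (7 of 14 positions above 0), -0.88 for miR-3096a-5p (4 of 16) and -0.10 for miR-3096b-3p (10 of 15). With this scaling and the measured probes of each miRNA combined, the differences of miR-3473b and miR-3096b-5p were larger than 2 spot SDs. So was that of the miR-3960 probe of 11 bases by itself, at 0.58 with a spot SD of 0.21 and all 13 positions above 0. Unscaled and again combined by miRNA, miR-3096b-5p, at -0.68, and miR-3096a-5p, at -0.82, were beyond 2 spot SDs and miR-3473b was not.

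The members' median was 0.61, beside 0.30 for all 72 miRNAs, and 6 of the 7 lay above the median miRNA, as 50% of the 72 do by construction. Above 0 were 6 members, against 61.1% of all. The sign depended on the scaling, which can itself shift all values together where many miRNAs change. Before it, all 7 members were lower on KO, as were 90.3% of the 72 miRNAs, with members' values from -1.21 to -0.26 and a median of -0.58. Unscaled, miR-3096b-3p alone was at least 2-fold lower, against 44.4% of the 72, and no member was at least 2-fold higher, against 1.39%. By the software's total gene signal, scaled in the same way, miR-3473b, miR-3960, miR-3963 and miR-3968 were at least 2-fold higher, as were 33.7% of the 86 miRNAs that it detected on both arrays. With the main scaling, members' values spanned 0.95 from lowest to highest, and those of the other 65 miRNAs spanned 6.93. A span grows with the number of values. The quartiles were 0.44 and 0.64 for the members and -0.31 and 0.67 for the others. For numbers 5000 and above the median was 0.73 over 9 miRNAs, for 1000 to below 3000 it was 0.80 over 3, and below 1000 it was 0.030 over 53.

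**Figure D4:**
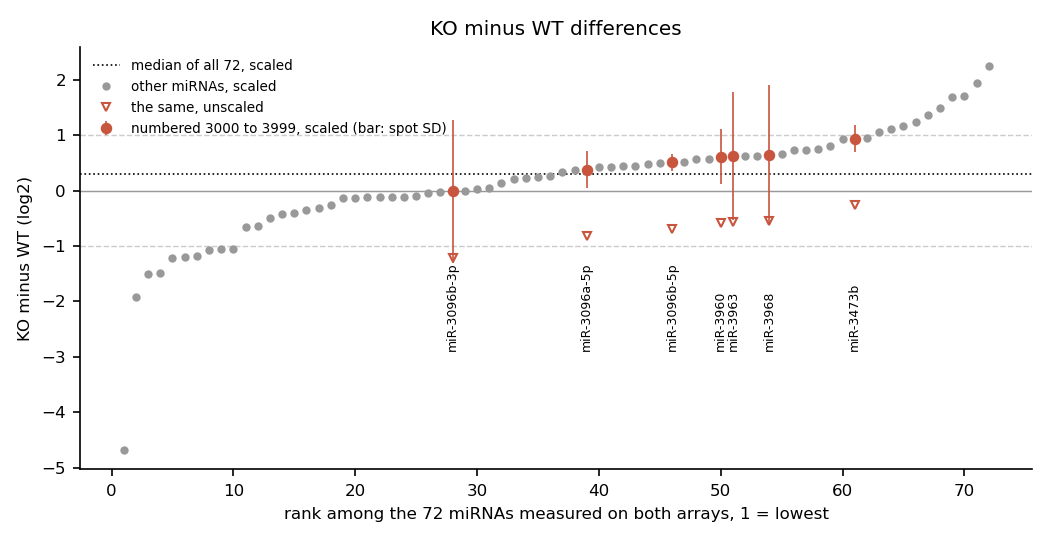
KO minus WT difference on the log2 scale (vertical) of the 72 miRNAs measured on both arrays, by rank (horizontal). Filled coloured points are the 7 members after scaling, with bars of 1 spot SD, and triangles the same members unscaled. Dashed lines mark 2-fold and the dotted line the median of 0.30. The scaled members lie between -0.014 and 0.94, and the unscaled ones all lie below 0.

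The differences held to a varying degree over the array. miR-3096b-5p was at 0.48, 0.50 and 0.53 in the first, middle and last band of rows with its measured probe. miR-3473b was at 0.89, 0.86 and 1.15. The value of miR-3968 ran from 0.19 over 0.83 to 2.44, the last from WT and KO signals that were near the background. The brighter probe of miR-3963 gave 0.69, 0.92 and -0.0050. miR-3096b-3p was at -0.46, 0.23 and 0.26, so its sign depended on the band. In the last band, miR-3473b and miR-3968 were at least 2-fold higher, as were 20% of 70 miRNAs with a value there.

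The GC content of the member probes had a median of 53.3%, from 30% to 91.7%, against 50% for the other miRNA probes. It ran slightly against the signal. Over the 280 member probes Spearman's rho between GC and signal was -0.311 on WT and -0.310 on KO, and Pearson's r was -0.0054 and -0.012. Over the 2825 other probes rho was -0.427 and -0.412. These values describe probes that share an array, a labelling and a scan, and most of them were not measured. Of member probes with a GC content of 30% to 50%, 1.89% of 106 were measured on both arrays. The shares were 4.82% of 83 for 52.9% to 57.1% and 3.30% of 91 for 60% to 91.7%. For other miRNAs' probes in the same ranges they were 4.81%, 1.49% and 2.99%. The measured member probes ranged from 42.1% for miR-3096b-5p to 91.7% for miR-3960.

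Repeats were counted as exact matches of a probe's target, on both strands, in 32851 mouse promoter windows (250 bases before to 50 after each start, RefSeq, GRCm38.p6). The target of the longer miR-3473b probe, TGGAGAGATGGCTCAG, was found in 51 windows (0.155%), and that of the shorter probe, which lies within it, in 54 (0.164%). Of the 417 array probes of 16 bases, 2 had as many or more, itself included. The whole mature sequence of miR-3473b was in 32 windows. The target of 11 bases of miR-3960 was in 0.393% of windows, and that of 12 bases in 26 windows, where the median of array probes of that length was 2. No window held a target of miR-3963, miR-3968, miR-3096a-5p, miR-3096b-3p or miR-3096b-5p. Of the 7 measured members, only miR-3473b and miR-3960 thus had targets in these windows. The windows cover promoters only, so a count of 0 does not show a single copy. The array annotation lists 2 positions for each miR-3096a-5p probe and 3 for each miR-3096b-3p probe, and 1 for the probes of the other measured members. These positions mix mouse builds and are not a count of copies.

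Among probes of at least 14 bases, 3.43% of the 233 member probes had a target in 10 or more windows, against 0.34% of the 2351 other probes. At 100 or more windows, over probes of any length, the shares were 0.357% of 280 and 0.460% of 2825. No window held the target of 78.57% of the member probes and 83.15% of the others. The 8 member probes with 10 or more windows belonged to miR-3473b, miR-3473a, miR-3470a and miR-3471, of which only miR-3473b was measured. The other probes past this limit belonged to 4 miRNAs, of which 3 were measured on at least 1 array. The B1-like miR-3470a had targets in 40 and 39 windows. Its probe means were -1.98 and 2.34 on WT and -5.04 and -2.20 on KO. Runs of 8 alternating bases were in 4 member probes (1.43%), against 2.65% of other probes, and in none of the members' probes measured on both arrays. A match in a window is a description and not a site of origin.

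**Figure D5:**
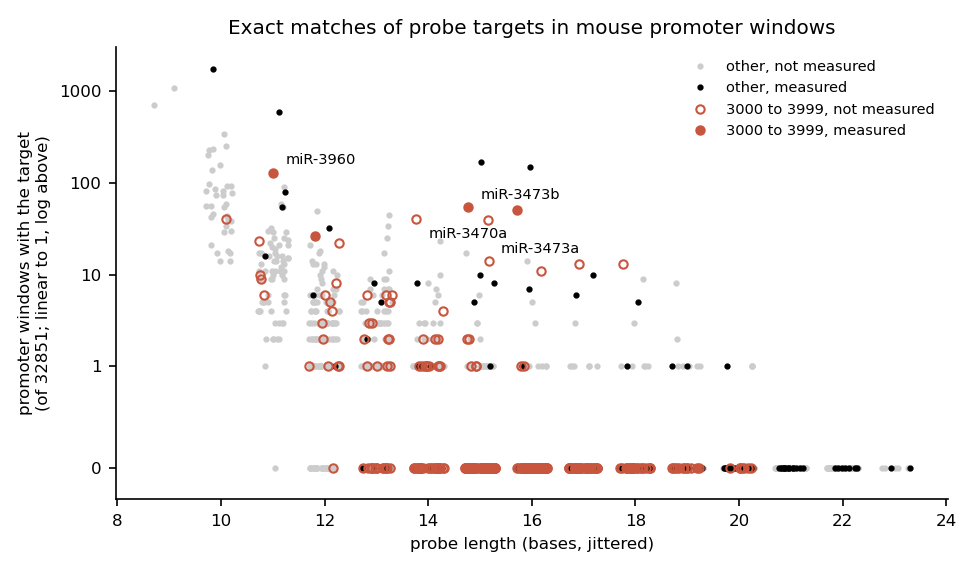
Number of the 32851 promoter windows that hold a probe's target (vertical, linear to 1 and log above) by probe length (horizontal, bases, jittered), for probes of miRNAs numbered in the 3000s and other miRNAs, filled or dark where measured on at least 1 array. At 15 and 16 bases, miR-3473b is the only measured member with many matches, at 54 and 51 windows. miR-3470a, with 40 and 39, was not measured.

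The hairpins of the measured members differed in how well they fold. RNAfold gave Mir3473b -77.3 kcal/mol per 100 bases, stronger than the other 615 of the 616 hairpins of array miRNAs, and paired all 20 bases of the mature strand. Mir3960 had -60.8, stronger than 585 of these hairpins. Mir3963 had -31.7 and Mir3968 -28.9, stronger than only 100 and 57 of them. In these, 14 of 19 and 13 of 21 bases of the mature strand were paired. The medians were -43.6 over 63 hairpins of members and -41.7 over all 616. Of 64 hairpins of the members, 53 (82.8%) overlapped the span of another gene, which could be a miRNA or lncRNA gene. This share was not counted for the other array hairpins.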

How the data were processed

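Spot intensities on a linear scale were deposited per array. The submitters' processing notes name Agilent Feature Extraction 10.7.3 as the software. A fitted additive spatial trend was subtracted and no normalization between arrays is recorded, per the file headers. The deposited flags of the software marked spots as well above background, outliers or saturated, and no member spot was saturated. The deposited value table of intensities equalled the software's total gene signal within 0.1% in all 1268 rows, with a median at the floor of 0.1. Labelling used 100 ng of total RNA, per the labels' protocols.

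Outlier spots (5.16% on WT, 4.59% on KO) were left out, spots of a probe were averaged, and the steps above were applied. The spot SD is that of the log2 KO over WT ratio over spot positions, combined over measured probes. Control probes measured on both arrays had KO over WT ratios of 0.411 (bright corner), 0.581, 0.676, 0.777, 0.828 and 0.870. Only the bright corner lay below the scaling factor of 0.437. The alternatives were other scalings, normexp (limma 3.58.1, offset 50), total gene signal, the value table, other filters, probe and spot summaries, kept outliers, paired positions and parts of the array. The scripts, in Python 3.11.15, were tested on simulated data. These had no trend over rows, and their spot noise was capped below that of the most variable members. Differences between miRNAs were recovered there, but where many miRNAs changed the scaling percentile itself moved and shifted all scaled values together, so a scaled difference is relative to that percentile. Sequences are from RefSeq (GRCm38.p6), where 115 of the 136 members matched by name, and the target of a probe was the 3′ end of the mature sequence in all 115. Hairpins were folded with RNAfold 2.7.2.

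Named miRNAs are the members measured on an array, the 10 brightest others, and members that share a number or seed with a measured one. miR-3470a, miR-3471, miR-2861, miR-5128 and miR-6537-5p were chosen after their values were seen. Members and lists were chosen with earlier results of these data known. The number of arrays limits the precision. No error across animals is given.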

Additional observations from a re-analysis of the deposited data

How the results depend on the processing

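No paired analysis was possible because there was 1 array for each genotype. The number of members measured on both arrays was 7 with normexp, total gene signal, the value table, the looser filter, spot medians, outliers kept and rows above 320 left out, and 6 with a filter of more than 75% of spots, which lost miR-3968. Shifts were judged against the spot SD of a member and, for the members' median, against the SD between members. Scaling set the direction, and the KO over WT factor of 0.437 was not settled by the control probes. With the 75th percentile over all probes the members' median was -0.33, with miR-3096a-5p at -0.57, miR-3096b-5p at -0.44, miR-3473b at -0.0093, miR-3960 at -0.33, miR-3963 at -0.32 and miR-3968 at -0.30. Without scaling it was -0.58, with the same miRNAs at -0.82, -0.68, -0.26, -0.58, -0.56 and -0.55. With positive controls it was -0.23, with miR-3096a-5p at -0.47, miR-3096b-5p at -0.33, miR-3960 at -0.23, miR-3963 at -0.21 and miR-3968 at -0.20, while miR-3473b was at 0.095. Quantile scaling gave a median of 0.36, with miR-3473b at 0.59, miR-3096b-5p at 0.33 and miR-3096a-5p at 0. By total gene signal and by the value table the median was 1.09 each. miR-3096b-3p, at -0.014 as reported, turned to 0.036 with median scaling, 0.34 with normexp, 0.16 by total gene signal, 0.16 by the value table, 0.043 with the looser filter, 0.13 with spot medians, 0.011 with paired positions and 0.010 without rows above 320. It was 0.23 in the middle and 0.26 in the last of 3 bands of rows, regions chosen after seeing the data. With no filter, which adds the shorter probes that were not measured on both arrays, miR-3096a-5p was at -0.25 and miR-3096b-5p at 0.27. The cause of the other turns was not tested. Relative to the median miRNA, 5 or 6 of the reported members stood above it under every other setting, and 0 with no filter, where 477 miRNAs, most of them dim, set a median of 0.89. With outlier spots kept miR-3473b passed 2-fold at 1.01 (15.3% of all miRNAs did), and unscaled miR-3096b-3p was at least 2-fold lower (44.4%). The correlation of signal with GC kept its direction with 1 value per miRNA. Signal over background limits the dim members: the KO signals of miR-3096a-5p, miR-3968 and miR-3473b were 30.8, 35.7 and 40.0, where the lowest measured probe was at 21.1.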

Other observations

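miR-5128, which is not numbered in the 3000s, was the closest array miRNA to miR-3473b outside its number, with 16 of 17 aligned bases identical. It was measured on WT only, at 19.6 on WT and 15.4 on KO with its brightest probe. miR-6537-5p, with 13 of 17 aligned bases in common with miR-3963, was measured on neither array, at -3.73 and -3.78. Among measured miRNAs with 2 probes of unequal length, the longer probe was the brighter on WT for 6 of 7 members and 85 of 89 others. The exception among the members was miR-3960.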
